A study of Mus musculus with 7 samples.

Results

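Inv3 is a CRISPR/Cas9 inversion on mouse chromosome 1 that carried part of the Epha4 domain to a new neighbourhood, and it was compared here with the WT chromosome by capture Hi-C. The comparison was defined by sample title and used 2 of the 7 libraries of the series. Both libraries came from forelimb and hindlimb buds at stage E11.5, and the titles of both read Distal. The WT library carries the genotype label WT and the Inv3 library the label mutant. Each library pooled 10 embryos per the series design, so there was 1 library per genotype. The cell type field reads G4 ESC for both, although the source is limb bud. The labels do not say whether Inv3 embryos carried the inversion on both chromosomes. DNA contacts do not report marker expression, so the labelled tissue could not be checked. With 1 library on each side no test was possible: errors below (±) are counting standard errors, they leave out differences between embryos and libraries, and no difference has a replicate check.

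Capture Hi-C crosslinks chromatin, cuts and religates it, and counts how often pairs of loci are joined. Chromosomes fold into domains whose loci meet each other more than loci outside. Many domain borders, and many loci from which contact stripes start, bind the protein CTCF. Epha4 encodes a receptor tyrosine kinase for ephrins that acts in limb and motor axon patterning, and its domain holds enhancers active in the limb bud. An inversion leaves the order of loci inside the segment intact but gives each end a new neighbour.

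The deposited Inv3 map had a share of the WT map subtracted and was written in the order of the rearranged chromosome. Outside the segment 83.9% of 95704 negative bin pairs with WT signal lay within 1% of 0.369 times WT, and the subtracted signal was 49.4% of the original bin sum. All Inv3 values are those left after this subtraction. Whether that subtraction took out the contribution of unrearranged chromosomes is not stated in the labels. The WT map held 5155257 read pairs. Outside the segment WT held 4444510 and Inv3, before the subtraction, 3262818, so Inv3 values rest on fewer reads and low ones are noisier.

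In WT order the inverted segment lay on chromosome 1 at 74.93 to 75.90 Mb (mm9), a length of 970 kb. The deepest WT border inside it, at 75.61 Mb, separated the Epha4 domain from the left part of the segment. The inversion thus moved 270 kb of the Epha4 domain, at 75.62 to 75.89 Mb, next to the left flank. The left part of the segment, at 74.93 to 75.62 Mb, came to face the remaining Epha4 domain at 75.90 to 77.52 Mb. The domain is named after the locus for which the capture was designed. The files used here give no position for the genes or the enhancer region, so genes were not placed on the mm9 maps.

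The start sites of 5 genes around which the gene table turned are shown as promoter sequence. The interval measured per start site is not given, so these bases need not be the whole of the locus measured. The genes are the Wnt ligand gene Wnt6 and the neuronal genes Cdk5r2 and Fev, which gained contact with the enhancer region, the hedgehog ligand gene Ihh, which did not, and Epha4, which lost contact. Sequences of 300 bases are from RefSeq (GRCm38.p6, a later build than that of the maps) and read 5′ to 3′ on the gene's strand. Wnt10a was not matched in the promoter table. Capitals mark matches on either strand to the GC box GGGCGG, the CCAAT box CCAAT or the TATA box TATAAA.
Wnt6, chr1:74771642-74771941, plus strand: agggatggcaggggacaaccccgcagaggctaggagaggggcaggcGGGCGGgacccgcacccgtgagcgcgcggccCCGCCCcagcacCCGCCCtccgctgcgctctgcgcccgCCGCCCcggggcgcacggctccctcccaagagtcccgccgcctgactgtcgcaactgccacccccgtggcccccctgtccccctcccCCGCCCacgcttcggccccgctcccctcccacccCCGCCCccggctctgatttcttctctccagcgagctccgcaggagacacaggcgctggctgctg
Cdk5r2, chr1:74854779-74855078, plus strand: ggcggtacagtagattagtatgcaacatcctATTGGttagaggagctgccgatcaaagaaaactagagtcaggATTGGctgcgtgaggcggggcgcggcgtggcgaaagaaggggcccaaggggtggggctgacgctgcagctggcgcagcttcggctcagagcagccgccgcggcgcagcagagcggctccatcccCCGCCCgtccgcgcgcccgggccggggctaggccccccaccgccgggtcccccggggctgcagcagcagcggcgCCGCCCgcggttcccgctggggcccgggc
Fev, chr1:74885359-74885658, minus strand: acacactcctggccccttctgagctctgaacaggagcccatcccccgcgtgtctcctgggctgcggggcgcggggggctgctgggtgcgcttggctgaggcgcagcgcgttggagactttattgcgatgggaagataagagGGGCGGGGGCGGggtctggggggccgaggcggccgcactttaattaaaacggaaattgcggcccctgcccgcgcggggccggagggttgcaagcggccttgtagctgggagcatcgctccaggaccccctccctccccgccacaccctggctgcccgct
Ihh, chr1:74951623-74951922, minus strand: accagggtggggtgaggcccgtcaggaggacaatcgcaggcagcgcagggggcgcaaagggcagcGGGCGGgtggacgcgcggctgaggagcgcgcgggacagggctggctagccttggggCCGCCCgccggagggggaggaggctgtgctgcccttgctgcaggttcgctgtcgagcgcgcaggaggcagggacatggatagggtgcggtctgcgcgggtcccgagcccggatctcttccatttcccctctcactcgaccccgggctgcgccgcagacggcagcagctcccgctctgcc
Epha4, chr1:77515039-77515338, minus strand: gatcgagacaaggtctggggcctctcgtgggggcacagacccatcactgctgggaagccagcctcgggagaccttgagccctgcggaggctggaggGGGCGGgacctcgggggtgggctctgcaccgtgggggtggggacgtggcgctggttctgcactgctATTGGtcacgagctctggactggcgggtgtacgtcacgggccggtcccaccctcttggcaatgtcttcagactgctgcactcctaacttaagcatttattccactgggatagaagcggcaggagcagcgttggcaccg

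The Wnt6 promoter held 6 GC box matches, those of Cdk5r2, Fev and Ihh 2 each and that of Epha4 1. The 2 matches in Fev lie side by side and appear as 1 run of capitals. Of 32851 RefSeq promoters of this length, 35.7% held a GC box. CCAAT box matches numbered 2 in Cdk5r2 and 1 in Epha4, against 37.4% of all promoters with at least 1. None of the 5 held a TATA box, which 13.6% of all promoters held. The G and C content was 64% in Epha4 and 69% to 76.7% in the other 4, with a median of 52.7% over all promoters.

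The gene tables addressed which start sites met the enhancer region once part of the Epha4 domain had moved. In WT the highest gene was Epha4, at 7.68 scaled units, and in Inv3 it was Fev, at 36.4. Contact in Inv3 rose at every gene from Cyp27a1 to Fev and then fell by 35.4 units at the next gene, Cryba2, while the second largest fall between neighbours was 7.06. Over 2-fold higher contact than WT was found for 47 of 103 genes, or 45.6%, and over 2-fold lower contact for 11, or 10.7%. Fold changes are on the log2(value + 0.5) scale, after negative values were replaced by 0, so that differences between small values are compressed. The authors scaled each table separately, and how they did so is not stated. The median gene had a log2 ratio of 0.81, and after centring on that gene 24 genes were above and 29 below. The 35 genes at both ends of the table had a median log2 ratio of 0.000 before centring, with 2 of them below. After centring 14 of the 35 were below and 1 above, so centring by itself puts many distant genes below WT.

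**Figure D1:**
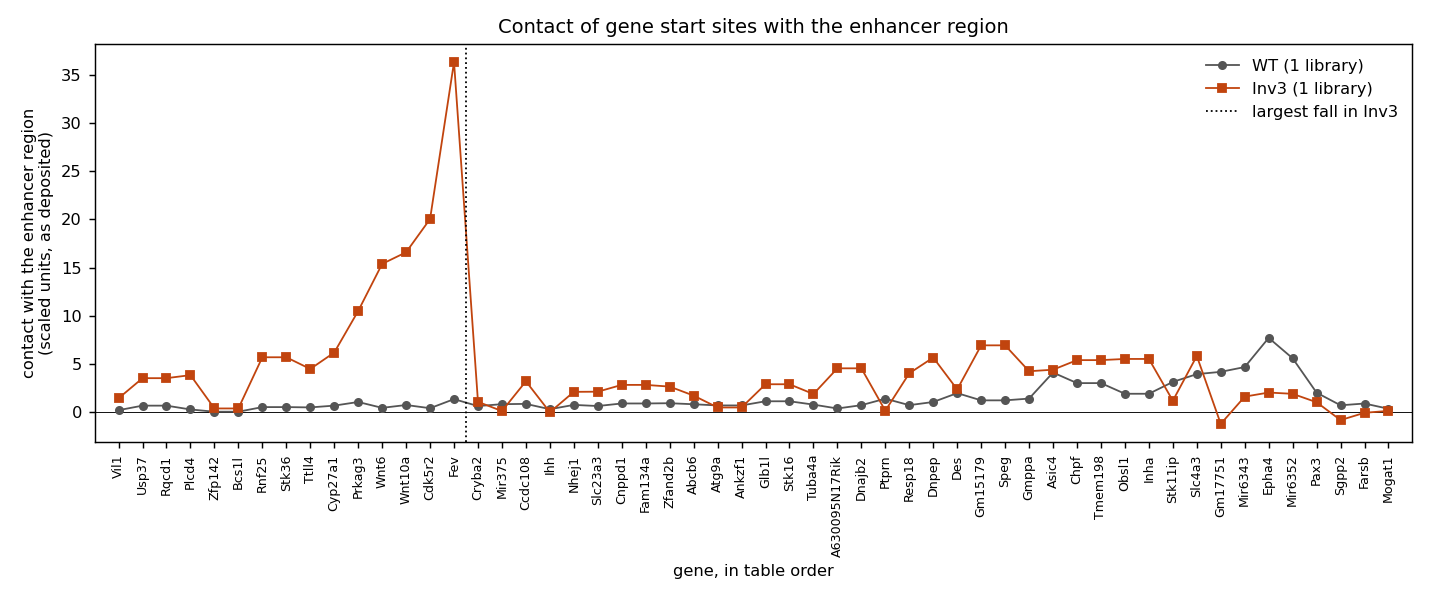
Contact of gene start sites with the enhancer region in scaled units as deposited (vertical axis) for the genes from Vil1 to Mogat1 in table order (horizontal axis), with 1 point per gene and library. Inv3 rises to 36.4 at Fev and drops to 1.03 at Cryba2, and WT peaks at Epha4 at 7.68.

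The largest gains were those of genes just before Fev in the table. Of the 10 genes that end with Fev, 9 were over 2-fold above WT, against 45.6% of all genes, with a median of 0.480 units in WT and 8.32 in Inv3. All 9 stayed above after centring, against 24 of all 103 genes. This group was picked after its values had been seen. Moving towards the fall, Cyp27a1, a sterol hydroxylase gene, went from 0.633 in WT to 6.15 in Inv3. Prkag3, which encodes a muscle subunit of the AMP-activated kinase, went from 1.01 to 10.5. The 6 genes from Cyp27a1 to Fev, also singled out after the fact, held 5.1% of the summed signal of the WT table and 38.8% of that of Inv3. Further out, the pair Rnf25, a ubiquitin ligase gene, and Stk36, a kinase gene, shared 1 value, 0.480 in WT and 5.67 in Inv3. Tmbim1, a membrane protein gene, was listed at 0 in WT and stood at 2.89 in Inv3. Over all 52 genes up to Fev, 28 (53.8%) were over 2-fold above WT, near the 45.6% of all genes. Another 2 were below, against 10.7% of all genes. The median log2 ratio was 1.09 against 0.81 for all genes.

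The secreted limb signals split at the fall. The products of Wnt6 and Wnt10a are Wnt ligands, and that of Ihh is a hedgehog ligand of growing cartilage. Wnt6 was at 0.401 in WT and 15.4 in Inv3, a log2 ratio of 4.14, or 3.33 after centring. Wnt10a was at 0.697 in WT and 16.6 in Inv3, a log2 ratio of 3.84, or 3.03 after centring. Ihh, which lies past Cryba2, went from 0.260 in WT to -0.053 in Inv3. Its log2 ratio was -0.60, and -1.41 after centring. Thus 2 of the 3 signals were over 2-fold above WT, against 45.6% of all genes.

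The neuronal and neuroendocrine genes split as well, with 3 of 4 above WT and 1 below, against 45.6% and 10.7% of all genes, a count too small to set apart from that background. The neuronal Cdk5 activator gene Cdk5r2 went from 0.365 in WT to 20.05 in Inv3, the largest log2 ratio of the table at 4.57. Fev, an ETS transcription factor gene of serotonergic neurons, was at 1.31 in WT and 36.4 in Inv3, a log2 ratio of 4.35. Resp18, which encodes a protein of endocrine secretory granules, was at 0.682 in WT and 4.00 in Inv3. Ptprn, a receptor phosphatase-like gene of the same granules, was at 1.35 in WT and 0.102 in Inv3, a log2 ratio of -1.62. Resp18 and Ptprn are neighbours in the table and moved in opposite directions.

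The genes between the fall and Epha4 reached at most 6.91 units in Inv3. Of the 33 genes from Cryba2 to the last before Epha4, 17 were over 2-fold above WT and 5 below, a share of 51.5% above against 45.6% of all genes. Ending this list at Slc4a3, a choice made after the data were seen, gave 17 above (54.8%) and 3 below of 31. Either list is near the shares of all genes, 45.6% above and 10.7% below. The lens crystallin gene Cryba2 itself was at 0.587 in WT and 1.03 in Inv3. The highest were Speg, a striated muscle kinase gene, and Gm15179, which shared 1.18 in WT and 6.91 in Inv3. A630095N17Rik was at 0.335 in WT and 4.51 in Inv3. Asic4, an ion channel gene, was at 4.08 and 4.37, and Slc4a3, an anion exchanger gene, at 3.91 and 5.80. Their log2 ratios of 0.09 and 0.51 turned to -0.72 and -0.29 after centring.

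Of the 3 genes of the muscle group, Des, Speg and Obsl1, 2 were over 2-fold above WT, a count too small to set apart from the 45.6% of all genes. Prkag3, described above, was not in this group. It went from 1.01 to 10.5, a log2 ratio of 2.86, or 2.06 after centring, so the counts depend on which genes are taken as muscle genes. Beside Speg, Obsl1, which encodes a cytoskeletal adaptor related to obscurin, was at 1.87 in WT and 5.49 in Inv3. Des, the desmin gene, was at 1.93 in WT and 2.32 in Inv3, a log2 ratio of 0.21 that turned to -0.59 after centring. After centring 1 of the 3, Speg, was above, against 24 of all 103 genes.

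Contact fell at Epha4 and its neighbours. Epha4 was at 7.68 in WT and 1.995 in Inv3, or 26.0% of WT, a log2 ratio of -1.71. The neighbouring entry Mir6352 went from 5.55 to 1.86, and Mir6343, just before Epha4, from 4.65 to 1.57. Gm17751, which precedes Mir6343, was at 4.15 in WT and -1.27 in Inv3. Of the 5 Epha4 and Pax3 domain genes, 3 were over 2-fold below WT and none above, against 10.7% of all genes below. After centring all 5 were below, against 29 of all 103 genes and 11 of the 18 genes from Epha4 on.

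The remaining 4 of these genes were between 0.304 and 1.98 in WT, where the median of all genes was 0.447. Pax3, which encodes a transcription factor of muscle precursors, went from 1.98 in WT to 0.984 in Inv3. Sgpp2, whose product dephosphorylates sphingosine phosphate, went from 0.667 to -0.871. Farsb, which encodes a subunit of a transfer RNA synthetase, was at 0.853 and -0.112, and the acyltransferase gene Mogat1 at 0.304 and 0.087. Over 35 genes at both ends of the table the SD of Inv3 minus WT was 0.608 units, and 31 genes rose and 5 fell by more than 3 times that SD. Those 35 genes reached at most 0.574 units in WT and 1.50 in Inv3, so this SD does not measure the noise of genes with higher values. The 5 were Epha4, Gm17751, Mir6352, Mir6343 and Stk11ip, the last named after its value had been seen, at 3.10 in WT and 1.14 in Inv3. Pax3, Sgpp2, Farsb and Mogat1 were not among them. Among the 35 distant genes themselves, 6 were over 2-fold above WT and 2 below, against 45.6% and 10.7% of all genes.

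The maps addressed how the moved DNA and the DNA that took its place met their new neighbours. Contacts are given as the percent of a bin's contacts in the 10 Mb map. In Inv3 the moved part of the Epha4 domain gave 15.8% ± 0.14 of its contacts to the nearest 1000 kb of the left flank, at 73.93 to 74.93 Mb, against 1.75% ± 0.028 in WT. With the remaining Epha4 domain it kept 7.67% ± 0.23, against 33.3% ± 0.11 in WT. Both differences were far larger than their counting errors. Contacts of the moved part within itself were 45.2% ± 0.18 in WT and 57.9% ± 0.52 in Inv3. Those with the left part of the segment were 5.92% ± 0.047 and 9.55% ± 0.13, across the same border in either map. Those beyond the Epha4 domain were 10.6% ± 0.068 and 4.89% ± 0.16, and those further out on the left 2.38% ± 0.031 and 2.60% ± 0.084. Bins without a clean counterpart were left out, so shares add up to slightly less than the whole.

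**Figure D2:**
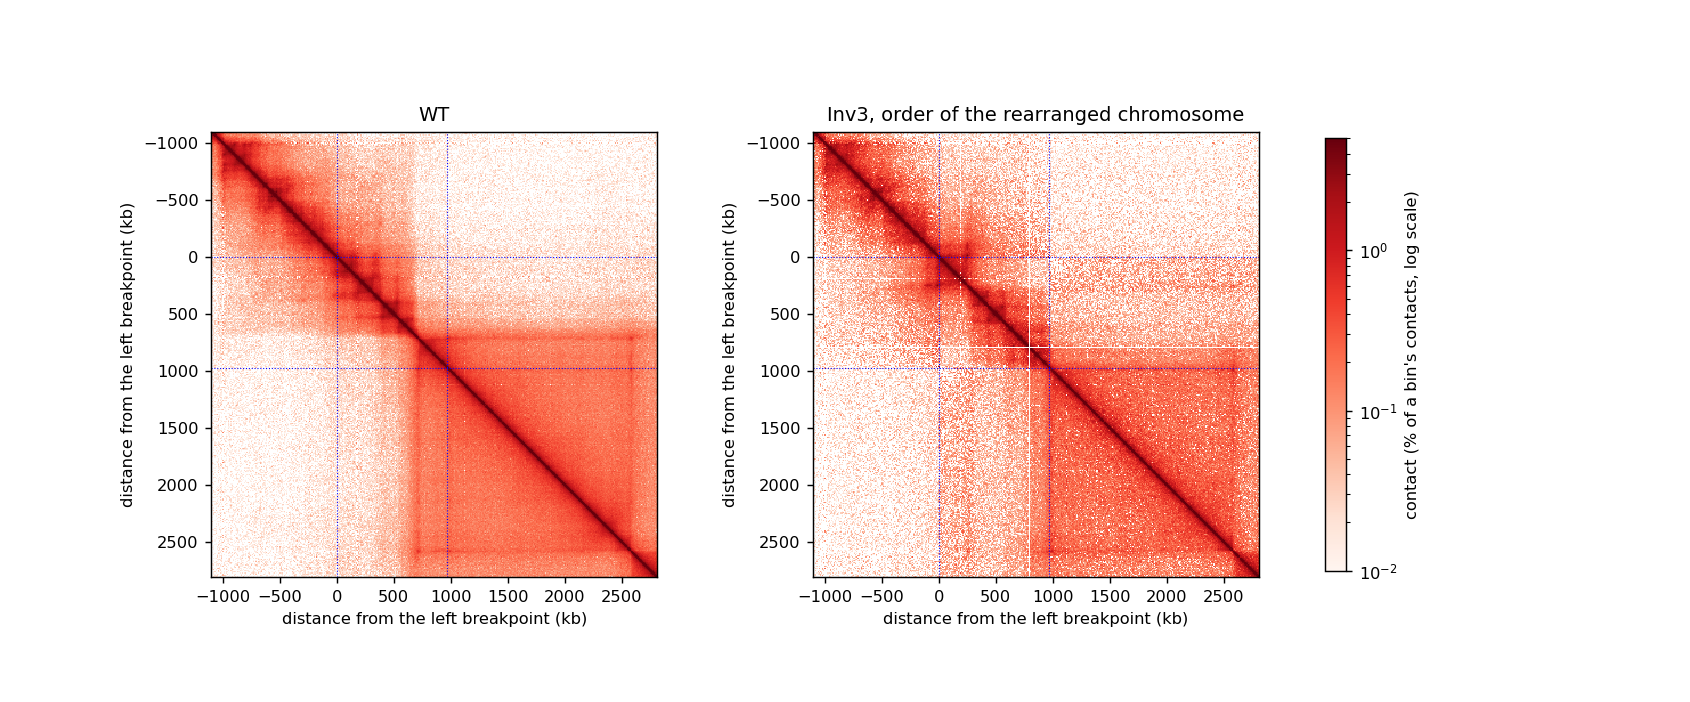
Contact maps of WT and Inv3 at 10 kb, each in the order of its own chromosome, as percent of a bin's contacts on a log colour scale; both axes give distance from the left breakpoint in kb, and dotted lines mark the breakpoints 970 kb apart. In Inv3 the moved part, from 0 to about 270 kb, forms contacts with the left flank, where it gave 15.8% of its contacts.

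The gain on the left was steepest at the join. In the first 100 kb beyond the left breakpoint the contact of the moved part was 0.318% ± 0.011 in WT and 7.44% ± 0.089 in Inv3, a ratio of 23.4. In the next 100 kb it was 0.239% ± 0.0097 and 2.90% ± 0.056, a ratio of 12.1. The ratio fell in every further step, to 1.53 at 900 to 1000 kb, where contact was 0.145% ± 0.0097 and 0.223% ± 0.025. Of the 970 bins outside the moved part, 16.8% met it over 2-fold more in Inv3 and 41.9% over 2-fold less. In the nearest 500 kb of the left flank 50 of 50 bins were over 2-fold above, and in the nearest 1000 kb 85 of 100.

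On the right, contact was lost through the remaining Epha4 domain and beyond it. In the first 100 kb beyond the right breakpoint contact was 4.90% ± 0.040 in WT and 0.040% ± 0.081 in Inv3, which is not above 0 by its counting error. From 200 kb to 1000 kb Inv3 kept 0.397% to 0.597% per 100 kb step, against 1.58% to 2.32% in WT. Of the 162 bins of the remaining Epha4 domain, 154 (95.1%) were over 2-fold below WT and 0 above, against 41.9% and 16.8% of all 970 bins. Beyond the domain 181 of 347 bins (52.2%) were over 2-fold below and 15 (4.3%) above, with a median ratio of 0.478. That share below is near the 41.9% of all bins. Further out on the left 69 of 293 bins were below and 49 above, although summed contact there was 2.38% in WT and 2.60% in Inv3. Single bins of low contact were thus called in both directions.

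**Figure D3:**
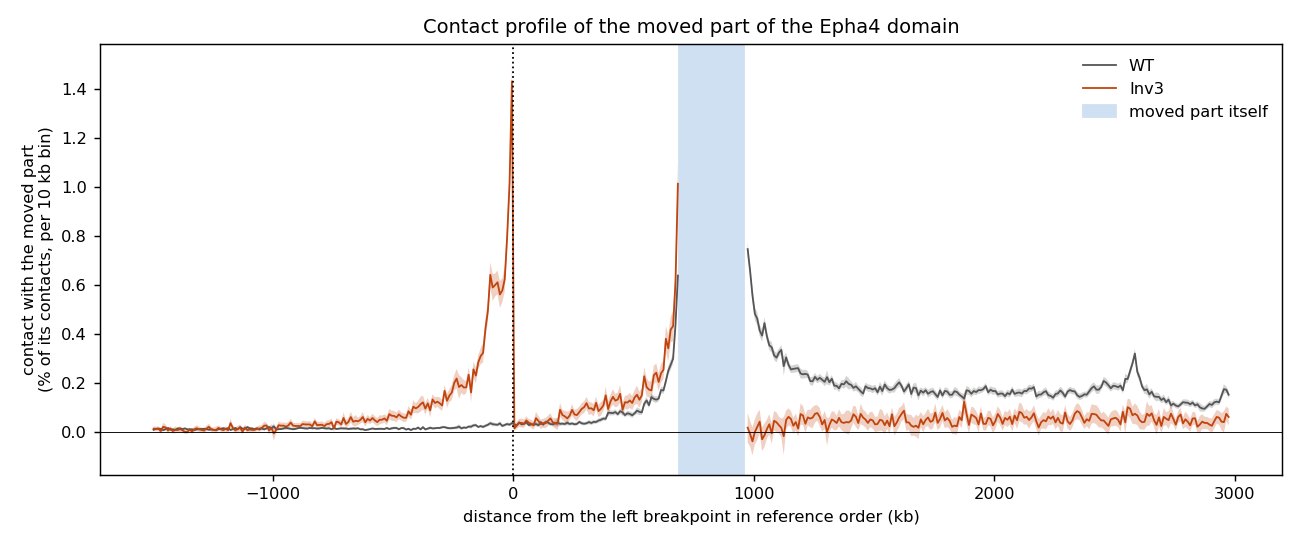
Contact of the moved part with each 10 kb bin, as percent of its contacts (vertical axis), against distance from the left breakpoint in WT order in kb (horizontal axis); bands are 95% counting intervals. The moved part itself is shaded and not plotted. On the left flank Inv3 peaks at 1.43% in the bin beside the left breakpoint, and it lies below WT throughout the remaining Epha4 domain on the right.

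Each of 3 pieces of the moved part gained contact with the left flank. The piece next to the border, at 75.62 to 75.71 Mb, gave 17.8% ± 0.26 of its contacts to the nearest 1000 kb of the left flank in Inv3, against 1.91% ± 0.052 in WT. The middle, at 75.71 to 75.80 Mb, gave 13.8% ± 0.23 against 1.80% ± 0.048. The piece at the breakpoint, at 75.80 to 75.89 Mb, gave 15.7% ± 0.24 against 1.53% ± 0.043. The piece at the border thus gave more than the piece at the breakpoint, although the inversion placed it farther from the left flank. With the remaining Epha4 domain the 3 pieces fell from 34.2%, 29.7% and 35.9% in WT to 9.61%, 7.63% and 5.78% in Inv3.

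The moved part did not regain on the left what it lost on the right. At 0 to 100 kb from the breakpoint its contact with the new neighbour in Inv3 was 152% ± 2.2 of that with the old neighbour in WT. At 100 to 200 kb it was 97.2% ± 2.2, and it fell in every step to 13.4% ± 1.5 at 900 to 1000 kb. Over all 1000 kb it was 70.0% ± 0.68. The left end of the segment, at 74.94 to 75.21 Mb, ran the other way when it was set beside the remaining Epha4 domain. Its contact with the new neighbour was 48.1% ± 1.1 of that with the old at 0 to 100 kb, 117% ± 4.6 at 300 to 400 kb and 348% ± 20.3 at 900 to 1000 kb. Over 1000 kb it was 106% ± 1.3. From the first to the last step, contact with the remaining Epha4 domain went from 4.90% to 1.67% for the moved part in WT and from 2.51% to 1.08% for the left end in Inv3. Contact with the left flank went from 7.44% to 0.223% for the moved part in Inv3 and from 5.23% to 0.311% for the left end in WT.

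**Figure D4:**
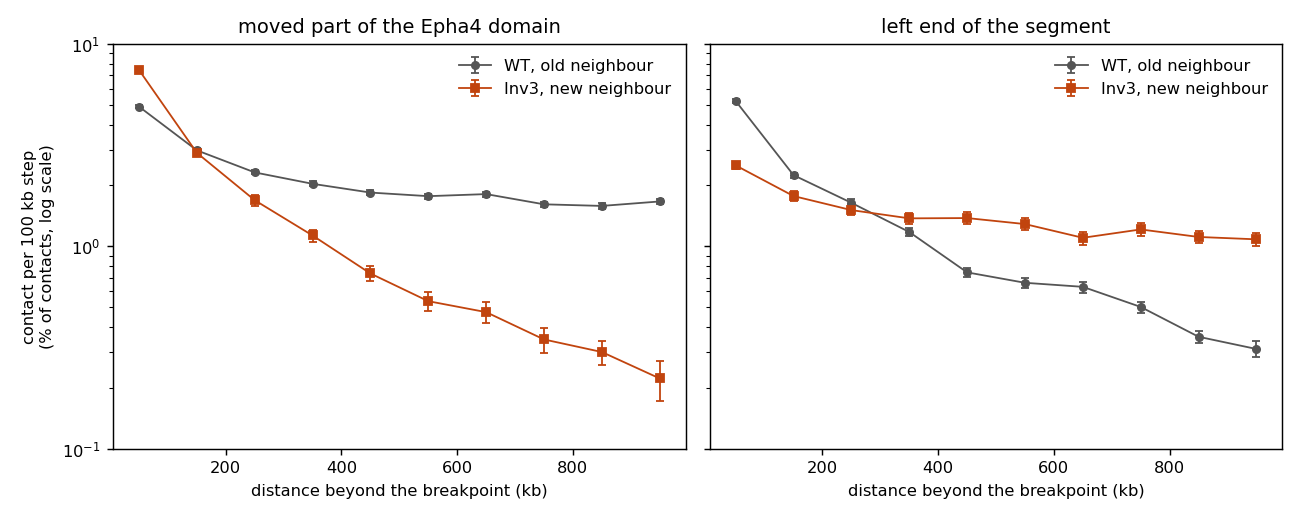
Contact per 100 kb step beyond the breakpoint, as percent of contacts on a log axis, for the moved part (left panel) and the left end of the segment (right panel), with their old neighbour in WT and their new neighbour in Inv3; bars are 95% counting intervals. At 900 to 1000 kb the moved part had 1.67% with the old and 0.223% with the new neighbour, and the left end 0.311% and 1.08%.

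The remaining Epha4 domain received the left part of the segment in place of the moved part. It gave 5.91% ± 0.041 of its contacts to the left part in Inv3, against 2.99% ± 0.014 in WT, and 1.28% ± 0.039 to the moved part, against 5.55% ± 0.018. Within itself it kept 77.1% ± 0.098 in WT and 78.4% ± 0.25 in Inv3. The exchange depended on position along the left part. The outermost 100 kb, at 74.93 to 75.03 Mb, gave 32.8% ± 0.29 of its contacts to the remaining domain in Inv3 and 3.30% ± 0.057 in WT. For the left flank the same sequence went from 18.8% ± 0.15 to 1.54% ± 0.26. At 75.33 to 75.43 Mb, near the middle of the segment, contact with the remaining domain was 6.50% ± 0.080 in WT and 6.74% ± 0.20 in Inv3. At 75.53 to 75.62 Mb, next to the border, it went from 20.1% ± 0.14 to 7.80% ± 0.32, and contact with the left flank from 4.11% ± 0.070 to 13.7% ± 0.25.

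Contact across the joins set the 2 new junctions beside the 2 former ones, over pairs of bins within 200 kb. Inv3 was 17.7 ± 0.62 times WT across the new left join and 10.4 ± 0.44 times across the new right join. Across the former left join 12.6% ± 1.6 of WT contact was left, and across the former right join 1.23% ± 1.6, which is not above 0 by its counting error. These sizes shrink with larger windows, and with the subtracted WT share added back the former joins stood at 0.546 and 0.513 times WT.

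Most borders outside the segment had a counterpart in Inv3, and the Epha4 border turned with the segment. Insulation was the log2 of mean contact across a bin within 200 kb over the map mean, and a boundary was a minimum at least 0.2 deep. WT had 19 boundaries and Inv3 22. Of the 17 WT boundaries outside the segment, 15 had a counterpart in Inv3 within 30 kb and 2 had none. Of the 22 Inv3 boundaries, 5 had no WT counterpart, and 3 of these, at 71.31, 73.65 and 78.21 Mb, lay far from the segment and were 0.211 to 0.256 deep. The border of the Epha4 domain, 1.48 deep in WT, was found in Inv3 at 75.21 Mb of the rearranged chromosome, where the turned sequence puts it, and was 1.31 deep. Its insulation was -1.40 in WT and -0.85 in Inv3, so contact across it was less reduced in Inv3. The Inv3 depth was 1.45 with a 100 kb window and 0.900 with 300 kb. The boundary at 75.31 Mb in WT, 0.525 deep, had its turned counterpart 10 kb away, 0.224 deep. The far border of the Epha4 domain at 77.51 Mb was 1.20 deep in WT and 1.10 in Inv3.

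Inv3 also had a boundary at the right breakpoint, 0.920 deep, where the left end of the segment meets the remaining Epha4 domain. Insulation of the same sequence was -0.09 in WT and -0.94 in Inv3. On the left flank a boundary at 74.81 Mb was 0.708 deep in Inv3, and the nearest WT boundary, at 74.87 Mb and 0.461 deep, lay 60 kb away and had no counterpart. WT insulation also dipped at 74.81 Mb, to -0.21, against -0.23 at 74.87 Mb, and only the lower of such close dips was called. At 74.81 Mb Inv3 was at -0.42, so the dip was present in both maps and lower in Inv3. The other WT boundary without a counterpart, at 75.97 Mb, was 0.216 deep. At the left breakpoint itself no boundary was found in Inv3.

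**Figure D5:**
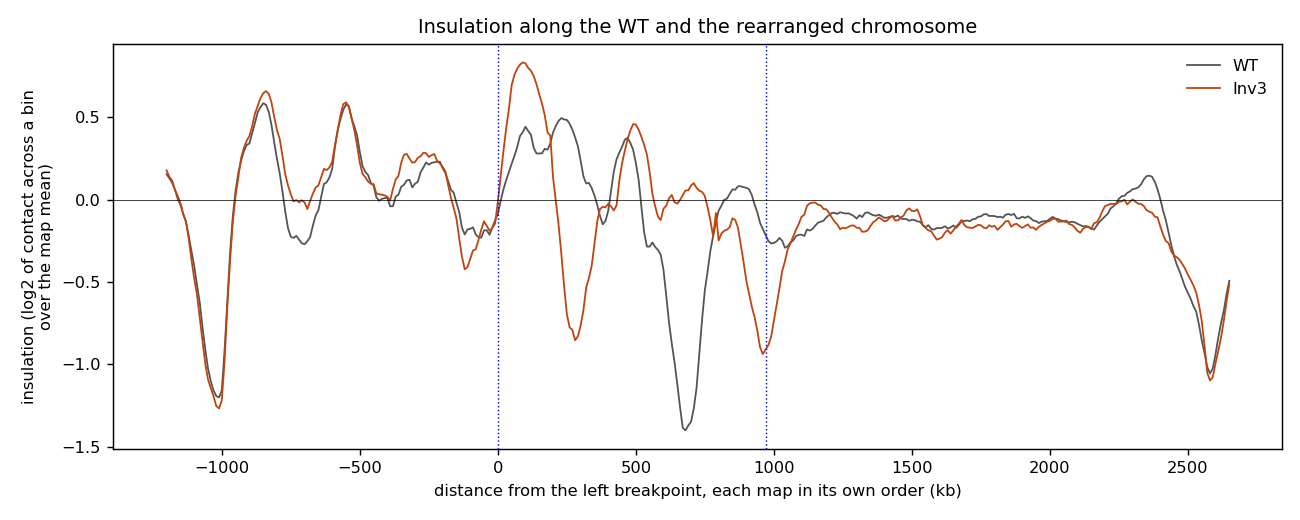
Insulation (log2 of contact across a bin over the map mean, vertical axis) against distance from the left breakpoint in kb, each map in its own order; dotted lines mark the breakpoints. The minimum of the Epha4 border moves from the right part of the segment in WT to its left part in Inv3, and Inv3 has a further minimum at the right breakpoint.

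A contact stripe started beside the Epha4 border, and in both maps it ran through the moved part and beyond it, at distances up to 600 kb. A stripe is a line of raised contact that runs from 1 anchor to many loci on one side. The anchor, chosen as the bin of the moved part with the highest WT score, lay at 75.64 Mb and was carried to 75.18 Mb of the rearranged chromosome. The score is the log2 ratio of its contact at 100 to 1500 kb, relative to the mean at each distance, to that of bins 3 to 8 on either side. Through the moved part, to the right in WT and to the left in Inv3, it was 0.65 in WT and 0.53 in Inv3. In WT it hardly varied with distance, at 0.69 for 100 to 300 kb and 0.64 for 1010 to 1500 kb. In Inv3 it was 0.97 for 100 to 300 kb, 0.73 for 310 to 600 kb, -0.12 for 610 to 1000 kb and -0.18 for 1010 to 1500 kb. The moved part spans 270 kb, so distances from 310 kb lie outside it. They fall in the remaining Epha4 domain in WT and in the left flank in Inv3, so the maps are compared there over different loci. Across the border, the score over the whole range was -0.70 in WT and -0.03 in Inv3. It was -0.97 in WT and -0.58 in Inv3 for 100 to 300 kb. For 1010 to 1500 kb it was -0.65 in WT and 0.43 in Inv3. These longest distances reach different loci, the left flank in WT and the remaining Epha4 domain in Inv3. The WT stripe through the moved part also ran into that domain, and whether 0.43 marks a new stripe was not tested. The score is relative to nearby bins. The piece next to the border, which holds the anchor, gave that domain 9.61% of its contacts in Inv3, against 34.2% in WT. Whether 0.43 depends on the subtraction was not tested. Over 283 bins outside the segment the SD of Inv3 minus WT was 0.10 on either side for the whole range.

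Pairs that the inversion left at the same distance differed from WT by an amount that varied with distance. Pairs inside the segment 20 to 100 kb apart were 1.04 ± 0.0086 times WT, those 310 to 600 kb apart 1.20 ± 0.022 times and those 610 to 1000 kb apart 1.37 ± 0.070 times. For pairs 310 to 600 kb apart the ratio was 1.10 ± 0.016 on the left flank and 1.06 ± 0.010 on the right flank. At 610 to 1000 kb it was 0.951 ± 0.027 on the left flank and 1.17 ± 0.013 on the right. At 1010 to 2000 kb it was 0.881 ± 0.056 on the left and 1.23 ± 0.019 on the right, so the right flank reached ratios like those of the segment at longer distances. Pairs that join the left with the right flank, 1010 to 2000 kb apart, were 1.01 ± 0.035 times WT. Inside the segment, contact relative to distance had a Spearman correlation between Inv3 and WT of 0.554 when turned back and 0.202 when not turned, over 4095 pairs of 93 bins that share the same libraries.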

How the data were processed

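The authors deposited 1 contact map per library (a signal for 2 bins of 10 kb, from 71 to 81 Mb, with KR balancing per the file names), and 1 scaled contact signal per gene start site with an enhancer region. The deposited Inv3 map and gene table are treated as a score, since they hold negative values. Build mm9, Bowtie2 2.2.6 and Juicer are named per the submitters' processing notes, without their steps.

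The subtracted WT weight, the order of the segment and the read pairs were recovered from the values with Python 3.11.15, NumPy 2.4.6 and SciPy 1.17.1. In WT 100% of values under 20 read pairs were whole to 0.1, and in Inv3 outside the segment, with WT added back, 99.9%. The recovery was tested on simulated data with a known inversion and weight. Turned sequence is placed to within about 1 bin. Sparse bins, listed in less than 25% of the median number of pairs, and bins mixed at a breakpoint, were left out. Values are 100 × signal / bin sum, and counting errors combine the read pairs of the library and of the subtracted WT share. PCR duplicates or embryo differences are not covered by them. The domain ends at the next WT border at least 1 deep.

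Named genes were the members of the listed groups, the 10 with the largest absolute log2 ratio, the 10 highest in Inv3, the 5 highest in WT and the pair at the largest fall. The comparison, groups and lists were chosen with earlier results of these data known. Of 103 symbols 98 were current in RefSeq and 5 were synonyms, and 30 genes share both values with another gene. Alternatives covered pseudocount, centring, windows, region limits, negative values and the subtraction.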

Additional observations from a re-analysis of the deposited data

How the results depend on the processing

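No paired analysis was possible because each genotype had 1 library, and no replicate could be left out. The gene counts depended on scale: 47 genes above WT became 5 with a pseudocount of 5 and 24 after centring, and 11 below became 26 with a pseudocount of 0.05, 0 with 5, 29 after centring and 6 among genes with at least 1 unit. Of the 21 named genes over 2-fold from WT, 21 stayed so with the smaller pseudocount, 5 with the larger and 20 after centring. Across the joins (new left, new right, former left, former right, Inv3 over WT) ratios were 27.8, 14.5, 0.053 and -0.075 with a 100 kb window, and 14.7, 7.37, 0.230 and 0.108 with 300 kb. The former right join thus has no settled sign at this depth. With limits moved outward by 20 kb the first 3 were 14.4, 8.05 and 0.202. With the WT share added back they were 9.46, 5.73, 0.546 and 0.513. With negative values set to 0 the former joins were 0.203 and 0.125, since this setting raises low values by construction. The contact ratio of the moved part with the left flank, 9.03, was 5.06 with WT added back, 7.98 with limits moved inward by 20 kb and 9.99 without pairs under 30 kb. Its ratio with the remaining domain, 0.231, was 0.614 with WT added back and 0.320 with negative values at 0 (the same pairs seen from the remaining domain gave the same values), and 0.258 without near pairs. The ratio of the remaining domain with the left part, 1.98, was 1.505 with WT added back, 2.06 with negative values at 0 and 1.94 without near pairs. The stripe score of 0.84 at 100 to 600 kb was 1.09 with flanks of bins 3 to 15 and 1.11 against all bins, and that of -0.14 at 610 to 1500 kb was -1.36 against all bins. With WT added back, ratios at 310 to 600 kb were 1.10 inside the segment, 1.05 on the left flank and 1.03 on the right. With negative values at 0 the left with right flank ratio was 1.42. No ratio between regions crossed 1 under the alternatives run, and the causes of these shifts were not tested beyond what each setting does by construction.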

Other observations

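Set beside the tables of the other inversions, Inv3 had the highest contact of the 5 tables for 25 of 103 genes, against 41 for Inv4, 21 for Inv1, 8 for Inv2 and 8 for WT. The 25 include Wnt6, Wnt10a, Cdk5r2, Fev, Speg and Obsl1. They also include distant genes at both ends of the table: Bard1, Atic, Mreg, Xrcc5, March4, Igfbp2, D530049I02Rik, Mir6351, Mrpl44, Serpine2 and Cul3. These lay between 0.488 units (Mreg) and 1.50 units (Igfbp2) in Inv3, so being highest in Inv3 is not particular to genes near the fall. The tables were scaled separately by the authors. On the left flank, contact of the moved part did not fall evenly with distance. The bin at 74.83 Mb, 100 kb from the left breakpoint, ranked 4 among left flank bins, at 0.641% ± 0.026 in Inv3 and 0.036% ± 0.0038 in WT. Bins from 74.84 to 74.89 Mb lay at 0.561% to 0.623%, so it was not a lone peak. Contact of the bin at 74.83 Mb was 1.64 times the mean of the Inv3 map at the same distances. That ratio was 1.45, 1.41 and 1.37 for the bins 90, 80 and 70 kb away. It was 1.89 for the bin beside the breakpoint, 1.56 for the bin 20 kb away and 1.16 for the bin 40 kb away.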
